A study of Mus musculus with 6 samples.

Results

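The 37 genes described here encode the working parts of the lysosome: 9 cathepsins and other proteases, 6 glycosidases, 4 enzymes and activators of lipid breakdown, 5 membrane proteins, 11 subunits of the vacuolar proton pump (V-ATPase) and 2 LC3-type autophagy genes. They were chosen by gene symbol from the 56748 genes of a count table, and each symbol matched 1 row. The RNA came from mouse adipose-derived stem cells (ADSCs), mesenchymal stromal cells grown from fat. In 3 libraries, labelled oe (the overexpressing group), the cells had been transduced together with the integrins VLA-4 (Itga4 with Itgb1) and LFA-1 (Itgal with Itgb2), adhesion receptors of white blood cells. The 3 reference libraries are labelled mock, with genotype WT, and the labels describe these cells both as given an empty vector and as unmodified. The labels name no strain, age, time after transduction, vector or promoter, and leave unsaid whether replicate libraries are separate cultures, so p-values measure the spread between libraries, which may be technical. The study asked how carrying both integrins alters the transcriptome of ADSCs.

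Lysosomes are acidic compartments in which hydrolases break down proteins, glycans and lipids delivered by endocytosis and autophagy. The V-ATPase acidifies them: its cytosolic V1 sector hydrolyses ATP, and its V0 sector in the membrane carries the protons across. Heavily glycosylated membrane proteins line the compartment, and many lysosomal genes carry the E-box CACGTG, bound by transcription factors of the MiT/TFE family, near their start.

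The libraries held 15723888 to 18185832 counts in the group labelled oe and 16904703 to 18381083 counts in the group labelled mock. None of the 4 integrin genes was higher in the libraries labelled oe. Itga4 averaged 2.51 CPM (counts scaled to library size, with TMM factors) in libraries labelled oe and 6.51 CPM in libraries labelled mock (edgeR adjusted p = 1.28e-05). Itgb1 was lower as well, at 2228 CPM against 2784 CPM (edgeR adjusted p = 9.16e-05), Itgal summed to 7 counts in each group, and Itgb2 summed to 15 and 38 counts. Transgene sequences outside the annotated genes were not analysed here. The groups are therefore named by their labels, and every direction below is that of the libraries labelled oe relative to those labelled mock.

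Of the 18 tested soluble hydrolases and Psap, 13 were lower in the libraries labelled oe, 1 was higher and 4 did not pass. Of the 5 membrane proteins 3 were lower and 1 higher, and of the 11 V-ATPase subunits 4 were higher and 7 did not pass. Of the 37, 36 passed the low-count filter, and 16 of these fell and 7 rose at an edgeR quasi-likelihood adjusted p under 0.05 with Benjamini-Hochberg adjustment over 14502 genes. The background was high, since 45.3% of all tested genes passed, 22.3% higher and 23% lower. Among the 5860 tested genes at or above the mean CPM of the least abundant tested member, a limit chosen after the values were seen, 60.6% passed, 28.4% higher and 32.2% lower. The share of members called, 63.9%, is near that figure, and 44.4% were lower and 19.4% higher. The members' log2 fold changes had a median of -0.12, against 0.0052 for all tested genes. They ran from -0.88 for Ctsh to 0.54 for Mcoln1, and no member reached a 2-fold difference, which 8.32% of all tested genes did while passing the test. The libraries labelled oe lay entirely below those labelled mock for 17 members and entirely above for 10. Groups without overlap made up 53.4% of all tested genes (26.5% below and 26.9% above), and 66.9% of the 5860. With scaling by library size alone, 12 members passed in each direction, as Ctsa, Glb1, Gusb and Neu1 lost the call and Ctsd, Tpp1, Psap, Atp6v0d1 and Atp6v1c1 passed as higher, and all genes gave 4598 higher and 2385 lower calls, against 3233 and 3339. In bulk RNA, fewer cells of a type and less RNA per cell cannot be told apart.

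**Figure D1:**
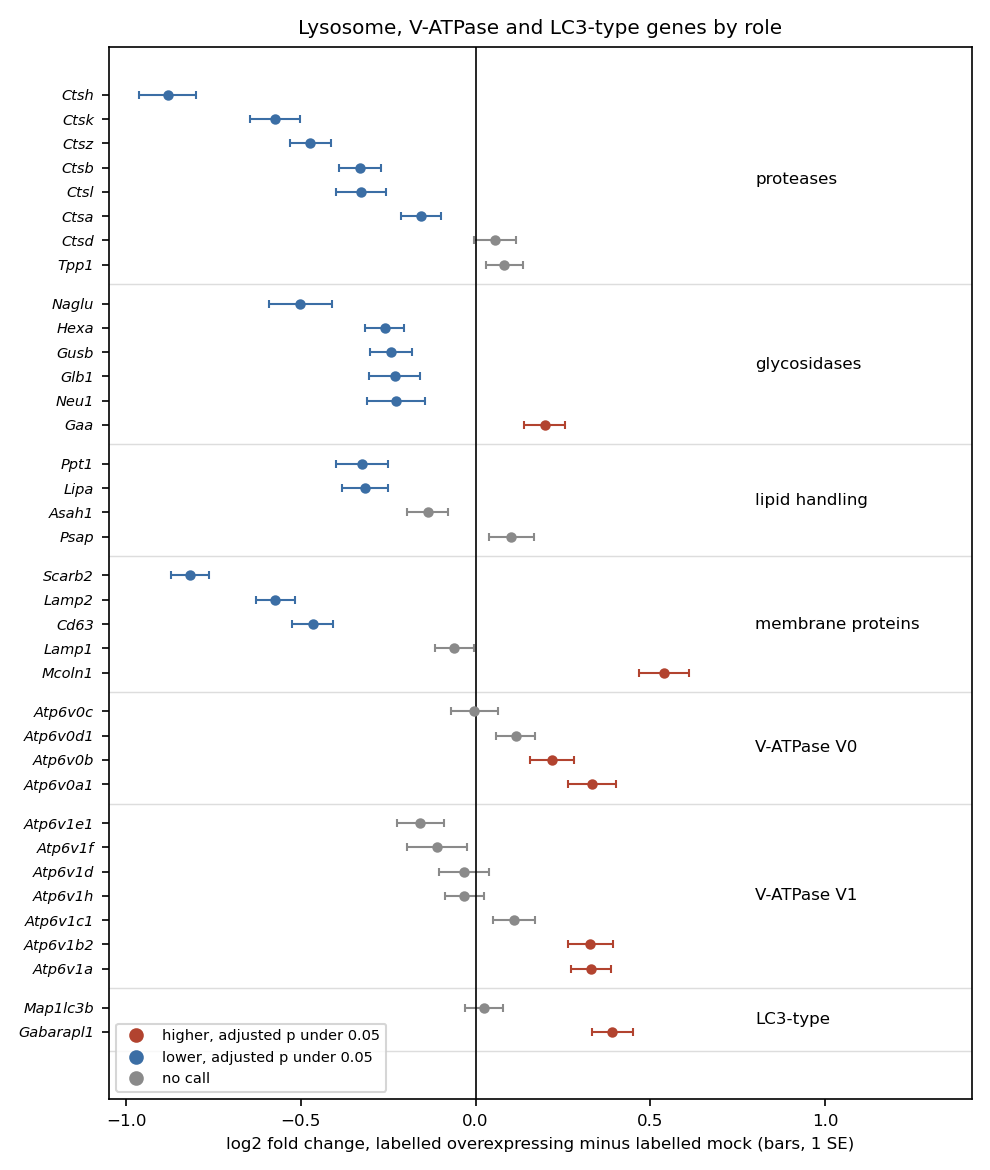
log2 fold change (libraries labelled oe minus labelled mock) of the 36 tested members, grouped by role, with bars of ± 1 SE from edgeR. Colours mark members that passed the adjusted p threshold of 0.05. The 16 members that fell are all hydrolases or membrane proteins, and the 4 called V-ATPase subunits lie right of 0.

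The promoters of 6 members are shown here. Mcoln1 and Atp6v1a, which rose, and Naglu and Ctsl, which fell, were taken because their windows hold the E-box. Lamp1 and Lamp2 were taken as a family pair, of which Lamp2 passed the test and Lamp1 did not. Each window runs from 250 bases before to 50 bases after the gene start (RefSeq, GRCm38.p6), reads 5′ to 3′ on the gene's strand, and has CACGTG in capitals. They lie at chr8:3500269-3500568 (plus strand) for Mcoln1, chr16:44139210-44139509 (minus) for Atp6v1a, chr11:101069844-101070143 (plus) for Naglu, chr13:64370471-64370770 (minus) for Ctsl, chr8:13158911-13159210 (plus) for Lamp1 and chrX:38456411-38456710 (minus) for Lamp2.
Mcoln1: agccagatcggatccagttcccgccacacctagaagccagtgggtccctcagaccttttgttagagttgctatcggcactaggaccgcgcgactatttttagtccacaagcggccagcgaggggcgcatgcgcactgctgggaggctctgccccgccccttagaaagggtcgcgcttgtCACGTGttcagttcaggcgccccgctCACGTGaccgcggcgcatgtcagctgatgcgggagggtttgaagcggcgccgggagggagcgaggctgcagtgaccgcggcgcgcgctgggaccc
Atp6v1a: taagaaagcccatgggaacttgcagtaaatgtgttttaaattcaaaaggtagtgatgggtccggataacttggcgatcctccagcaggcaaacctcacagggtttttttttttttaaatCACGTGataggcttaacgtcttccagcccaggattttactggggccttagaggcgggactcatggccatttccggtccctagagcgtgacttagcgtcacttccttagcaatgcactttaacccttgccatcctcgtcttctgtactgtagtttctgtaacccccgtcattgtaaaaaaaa
Naglu: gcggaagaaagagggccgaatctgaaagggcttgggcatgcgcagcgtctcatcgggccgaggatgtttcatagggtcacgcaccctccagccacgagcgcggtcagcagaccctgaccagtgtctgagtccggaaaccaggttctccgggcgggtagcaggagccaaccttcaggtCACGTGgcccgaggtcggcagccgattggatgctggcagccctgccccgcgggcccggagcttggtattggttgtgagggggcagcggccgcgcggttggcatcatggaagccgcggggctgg
Ctsl: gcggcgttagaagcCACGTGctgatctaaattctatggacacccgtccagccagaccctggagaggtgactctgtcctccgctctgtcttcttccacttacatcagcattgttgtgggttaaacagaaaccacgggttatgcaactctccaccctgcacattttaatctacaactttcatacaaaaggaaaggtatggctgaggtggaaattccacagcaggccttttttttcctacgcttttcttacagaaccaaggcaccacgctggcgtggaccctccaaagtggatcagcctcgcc
Lamp1: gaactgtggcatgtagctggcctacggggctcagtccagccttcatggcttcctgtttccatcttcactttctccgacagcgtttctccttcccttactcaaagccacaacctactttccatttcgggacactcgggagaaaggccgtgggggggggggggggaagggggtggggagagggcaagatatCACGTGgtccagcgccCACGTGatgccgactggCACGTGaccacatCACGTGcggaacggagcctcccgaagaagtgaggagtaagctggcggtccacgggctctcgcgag
Lamp2: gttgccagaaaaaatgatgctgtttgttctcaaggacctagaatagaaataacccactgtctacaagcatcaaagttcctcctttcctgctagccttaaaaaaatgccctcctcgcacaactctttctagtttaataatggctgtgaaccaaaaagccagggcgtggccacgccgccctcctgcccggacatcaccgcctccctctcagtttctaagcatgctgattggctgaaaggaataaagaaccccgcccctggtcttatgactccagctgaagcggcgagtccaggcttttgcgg
The Mcoln1 window holds 2 E-boxes, which start 71 and 45 bases before the gene start. The Lamp1 window holds 4 of them, from 61 to 15 bases before the start. Single E-boxes start 131 bases before the start in Atp6v1a, 73 in Naglu and 236 in Ctsl, and the Lamp2 window has none of these letters. A window was found for 31 of the 37 members, and 11 of the 31 (35.5%) held CACGTG in at least 1 window, against 8.09% of 27025 genes with windows of the same length. The longer form TCACGTGA, which contains CACGTG, was in 5 members (16.1%), against 1.12% of all genes, and the consensus of the CLEAR element, which contains both, was in none of the 31, against 0.37% of all genes. All these motifs read the same on both strands. The windows were not matched for base composition, and no test was run. E-boxes were found in 4 of 6 members that rose, in 4 of 14 that fell and in 3 of 10 with no call, so genes that moved in either direction carry them.

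Among the proteases, 6 of 8 tested members fell, none rose, and the median log2 fold change was -0.33. Of all tested genes 23% were called lower, and of genes at the members' levels 32.2%. Ctsh, a cathepsin with aminopeptidase activity (mm39 chr9:89936205-89958142), had 73.9, 77.9 and 59.9 CPM in the 3 libraries labelled oe, against 123, 125 and 142 CPM in those labelled mock. The groups stood well apart, and the highest library labelled oe was far below the lowest labelled mock. The difference was -0.88 on the log2 scale (SE 0.080, edgeR adjusted p = 6.48e-09), the furthest below 0 of the members. Ctsk, the collagen-degrading cathepsin best known from osteoclasts (chr3:95406567-95416673), had 111, 117 and 115 CPM against 149, 170 and 192 CPM. Its libraries labelled oe were nearly level with one another, those labelled mock were spread, and the groups did not overlap (log2 fold change -0.57, SE 0.072, edgeR adjusted p = 8.16e-07). Ctsz, a carboxypeptidase, had 197, 201 and 182 CPM in libraries labelled oe and 256, 265 and 284 CPM in those labelled mock. Its log2 fold change was -0.47 (SE 0.059, edgeR adjusted p = 7.67e-07), with no overlap.

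The endopeptidases Ctsb and Ctsl fell as well. Ctsb, a cysteine protease, had 861, 855 and 763 CPM in libraries labelled oe, against 1007, 1024 and 1086 CPM in libraries labelled mock (log2 fold change -0.33, edgeR adjusted p = 8.79e-05). Ctsl, its close relative, had 615, 646 and 513 CPM against 696, 740 and 793 CPM (log2 fold change -0.33, edgeR adjusted p = 0.000634). Replicate 3 was the lowest library labelled oe in both genes, and neither gene's groups overlapped. Ctsa, the carboxypeptidase that protects Neu1 and Glb1 in a complex, differed by -0.16 on the log2 scale (edgeR adjusted p = 0.0281), and this call was lost without replicate 3 labelled oe (edgeR adjusted p = 0.103) or replicate 3 labelled mock (0.122). Ctsd, the main aspartic protease, did not pass: it had 734, 715 and 654 CPM in libraries labelled oe against 654, 654 and 716 CPM in libraries labelled mock, so the groups overlapped (edgeR adjusted p = 0.466). Tpp1, a tripeptidyl peptidase, had 298, 281 and 284 CPM against 269, 269 and 277 CPM, which do not overlap, yet it did not pass (log2 fold change 0.08, edgeR adjusted p = 0.219). Ctss, a cathepsin of antigen-presenting cells, had 1, 0 and 0 counts in libraries labelled oe and 3, 1 and 0 counts in those labelled mock, at or under the floor of 3 counts per library, so no fold was computed.

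Within a library, ratios between proteases do not depend on library scaling. The ratio of Ctsd to Ctsl counts was 1.19, 1.11 and 1.27 in libraries labelled oe and 0.938, 0.884 and 0.903 in libraries labelled mock. These do not overlap, and the exact two-sided permutation p was 0.1, the smallest that 3 against 3 libraries can give (0.15 adjusted over the 6 ratios computed). The Ctsk to Ctsl ratio was 0.180, 0.180 and 0.225 in libraries labelled oe and 0.214, 0.229 and 0.242 in those labelled mock. Here the groups overlapped (exact permutation p = 0.2, 0.24 adjusted). The Ctsb to Ctsl ratio had geometric means within 0.0019 of each other on the log2 scale, against SDs of 0.084 in libraries labelled oe and 0.042 in those labelled mock (exact permutation p = 1).

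All 6 glycosidases passed the test, 5 lower and 1 higher. Beside this, 45.3% of all tested genes passed (23% lower), and 60.6% of genes at the members' levels (32.2% lower). Naglu, which removes N-acetylglucosamine from heparan sulfate (chr11:100960838-100968498), had 27.8, 26.7 and 28.3 CPM in libraries labelled oe against 39.4, 34.1 and 43.8 CPM in those labelled mock. Again the libraries labelled oe were close together and below all of those labelled mock (log2 fold change -0.50, SE 0.091, edgeR adjusted p = 9.64e-05). Hexa, the alpha subunit of beta-hexosaminidase A, had 215, 200 and 205 CPM against 243, 245 and 256 CPM (log2 fold change -0.26, edgeR adjusted p = 0.000499). Gusb, the beta-glucuronidase, Glb1, the lysosomal beta-galactosidase, and Neu1, a sialidase, fell by 0.24, 0.23 and 0.23 on the log2 scale. The Glb1 call was lost without replicate 3 labelled oe (edgeR adjusted p = 0.0742) or replicate 3 labelled mock (0.0793), and that of Neu1 without any of 4 libraries in turn (replicate 1 or 3 of either label). Neu1 did not pass in the authors' comparison either (their adjusted p = 0.0614). With DESeq2, or with no filter on low counts, 4 glycosidases rather than 5 were lower. Gaa, the enzyme that degrades glycogen, was the 1 soluble hydrolase that rose: 452, 407 and 427 CPM in libraries labelled oe, against 377, 354 and 391 CPM in those labelled mock. The groups did not overlap, the log2 fold change was 0.20 (edgeR adjusted p = 0.0079), and the call was lost without replicate 1 labelled oe (0.0578) or replicate 2 labelled mock (0.0705).

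In the lipid-handling group, Lipa and Ppt1 fell and the other 2 members did not pass. Lipa, the acid lipase that frees cholesterol from its esters, had 84.8, 82.9 and 77.0 CPM in libraries labelled oe and 109, 94.9 and 101 CPM in libraries labelled mock (log2 fold change -0.32, edgeR adjusted p = 0.000407). Ppt1, a thioesterase that removes palmitate from proteins, had 71.0, 77.7 and 62.5 CPM against 85.4, 93.8 and 85.4 CPM (log2 fold change -0.33, edgeR adjusted p = 0.000959). In both genes every library labelled oe was below every library labelled mock. Psap, the precursor of the saposins that present sphingolipids to their enzymes, had 1576, 1493 and 1317 CPM in libraries labelled oe against 1293, 1356 and 1436 CPM in those labelled mock, with overlap (edgeR adjusted p = 0.209). Without replicate 3 labelled oe, Psap would pass as higher (edgeR adjusted p = 0.0271). Asah1, the acid ceramidase, had a log2 fold change of -0.14 (edgeR adjusted p = 0.0617), and passed as lower without replicate 2 labelled oe (0.0273). It also passed as lower with DESeq2, with no filter on low counts, with a replicate block and in the authors' comparison (their adjusted p = 0.0349).

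Of the 5 membrane proteins, 3 fell, 1 rose and 1 did not pass, where 60.6% of genes at the members' levels and 45.3% of all tested genes passed. Scarb2 (LIMP-2), which carries glucocerebrosidase to the lysosome (chr5:92589173-92654692), had 99.6, 101 and 98.3 CPM in libraries labelled oe, against 176, 175 and 176 CPM in those labelled mock. Both groups were tight and far apart, with a log2 fold change of -0.82 (SE 0.055) and the smallest adjusted p of the members (edgeR, 4.52e-11). Lamp2, needed for fusion of autophagosomes with lysosomes (chrX:37490234-37545331), had 461, 483 and 444 CPM against 669, 711 and 684 CPM (log2 fold change -0.57, SE 0.055, edgeR adjusted p = 1.65e-08). Cd63, a tetraspanin of late endosomes and exosomes (chr10:128736858-128748691), had 438, 471 and 430 CPM against 621, 646 and 581 CPM. Its log2 fold change was -0.47 (SE 0.058, edgeR adjusted p = 7.31e-07), and with the counts of its processed copy Cd63-ps added, an alternative chosen after seeing the data, it was again -0.47. Lamp1, the close relative of Lamp2, did not pass: it had 1142, 1170 and 1066 CPM in libraries labelled oe against 1174, 1157 and 1194 CPM in those labelled mock, with overlap (log2 fold change -0.06, edgeR adjusted p = 0.392). The Lamp1 to Lamp2 count ratio was 2.48, 2.42 and 2.40 in libraries labelled oe and 1.75, 1.63 and 1.75 in libraries labelled mock (exact permutation p = 0.1, 0.15 adjusted over 6 ratios).

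Mcoln1 went the other way from the other membrane proteins called. It encodes TRPML1, the calcium channel of the lysosomal membrane (chr8:3550457-3565232), and had 74.8, 68.7 and 68.3 CPM in libraries labelled oe against 47.2, 46.5 and 52.3 CPM in libraries labelled mock. The groups did not overlap, and the difference of 0.54 on the log2 scale (SE 0.072, edgeR adjusted p = 1.99e-06) was the highest of the members. Per gene length its level was low, 9.25 ± 0.50 FPKM in libraries labelled oe and 6.41 ± 0.39 FPKM in those labelled mock (SD, n = 3 each), the lowest of the tested members in the group labelled mock.

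**Figure D2:**
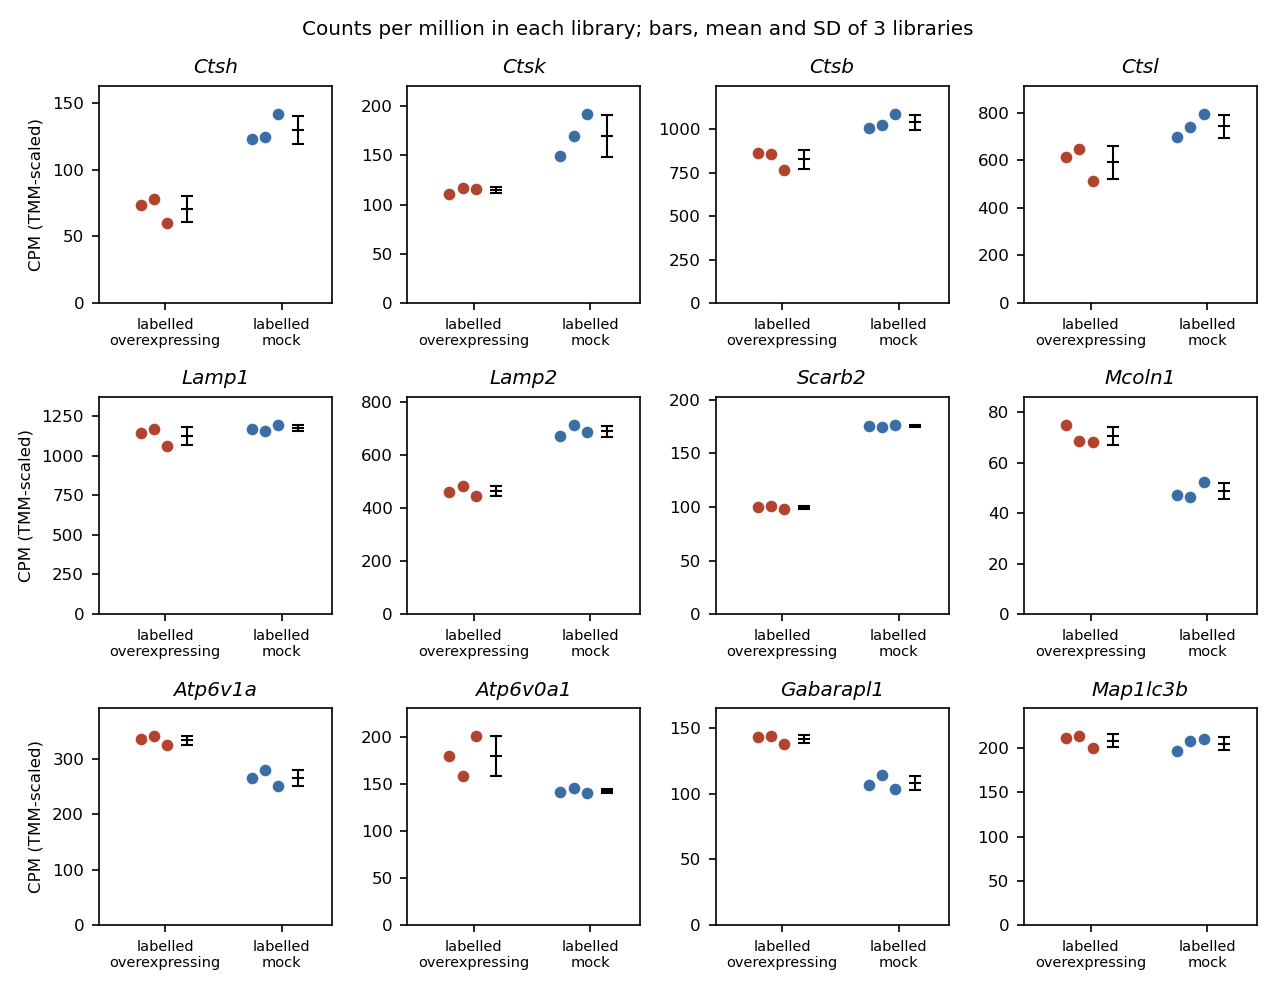
CPM in each of the 6 libraries for members named in the text, with libraries labelled oe left of those labelled mock and bars for the mean ± SD of each group. Libraries labelled oe lie below those labelled mock for Ctsh, Ctsk, Ctsb, Ctsl, Lamp2 and Scarb2 and above them for Mcoln1, Atp6v1a, Atp6v0a1 and Gabarapl1, and the groups overlap for Lamp1 and Map1lc3b.

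Of the 11 V-ATPase subunits among the members 4 rose, 2 in each sector, and none passed as lower. The share called, 36.4%, all higher, is below the 45.3% of all tested genes called in either direction, and lies near the 28.4% called higher among genes at the members' levels, so the count is near the background. In the membrane sector, Atp6v0a1, an isoform of the subunit that forms part of the proton path, had 180, 159 and 201 CPM in libraries labelled oe against 142, 146 and 141 CPM in those labelled mock. Its libraries labelled oe were more scattered, but all were above those labelled mock (log2 fold change 0.33, SE 0.069, edgeR adjusted p = 0.000376). Atp6v0b, a proteolipid of the rotating ring, had 98.2, 107 and 102 CPM against 89.6, 82.2 and 92.3 CPM (log2 fold change 0.22, edgeR adjusted p = 0.00733), and did not pass without replicate 2 labelled mock (0.0634). Atp6v0c, the main ring proteolipid, had a log2 fold change of -0.0037 (edgeR adjusted p = 0.972). Atp6v0d1, which couples the ring to the central stalk, had 190, 185 and 194 CPM against 175, 168 and 182 CPM, apart but not past the threshold (edgeR adjusted p = 0.0989).

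In the cytosolic sector the 2 subunits that together form the ATP-hydrolysing head rose. Atp6v1a, the catalytic A subunit (chr16:43905765-43960068), had 335, 340 and 324 CPM in libraries labelled oe against 265, 280 and 250 CPM in those labelled mock. Atp6v1b2, the B subunit, had 160, 154 and 135 CPM against 116, 121 and 120 CPM. In both genes all libraries labelled oe were higher, each with a log2 fold change of 0.33 and edgeR adjusted p of 4.93e-05 for Atp6v1a and 0.000223 for Atp6v1b2. The stalk and regulatory subunits Atp6v1c1, Atp6v1d, Atp6v1e1, Atp6v1f and Atp6v1h did not pass, with log2 fold changes between -0.16 and 0.11. Atp6v1e1 passed as lower without replicate 2 labelled oe (edgeR adjusted p = 0.0106), without replicate 1 labelled mock (0.0338) and with no filter on low counts (0.0369). Atp6v1f passed as lower without replicate 2 labelled oe (edgeR adjusted p = 0.0416), and Atp6v1h with an offset for gene length (0.0436). The count ratio of Atp6v1a to Atp6v0d1 was 1.76, 1.84 and 1.67 in libraries labelled oe and 1.52, 1.66 and 1.37 in those labelled mock (exact permutation p = 0.1, 0.15 adjusted).

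Of the LC3-type genes, which are joined to lipid on the autophagosome membrane, Gabarapl1 rose and Map1lc3b did not pass. Gabarapl1 (chr6:129510123-129519309) had 143, 144 and 138 CPM in libraries labelled oe against 106, 114 and 104 CPM in libraries labelled mock (log2 fold change 0.39, SE 0.059, edgeR adjusted p = 1.01e-05). Map1lc3b had 211, 213 and 200 CPM against 196, 208 and 210 CPM, with overlap (edgeR adjusted p = 0.753). Their count ratio, Map1lc3b to Gabarapl1, was 1.47, 1.49 and 1.45 in libraries labelled oe and 1.85, 1.82 and 2.03 in libraries labelled mock (exact permutation p = 0.1, 0.15 adjusted).

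Per gene length, in the authors' FPKM, Psap, Lamp1 and Ctsd led the members in both groups. Psap averaged 527 ± 47.6 FPKM in libraries labelled oe and 494 ± 25.1 FPKM in those labelled mock, Lamp1 417 ± 18.9 and 437 ± 4.9 FPKM, and Ctsd 295 ± 17.4 and 286 ± 14.2 FPKM (SD, n = 3 each). None of these 3 passed the test, so the most abundant members per length were among those with no call. The next levels in each group were those of Ctsb, Ctsz, Cd63 and Asah1. These ran from 119.9 to 135 FPKM in libraries labelled oe and from 147 to 185.2 FPKM in those labelled mock. The V-ATPase subunits lay lower, Atp6v0d1 highest at 105 ± 2.8 FPKM in libraries labelled oe and 97.2 ± 3.5 FPKM in those labelled mock, and Atp6v0a1 at 27.2 ± 3.3 and 21.7 ± 0.5 FPKM.

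**Figure D3:**
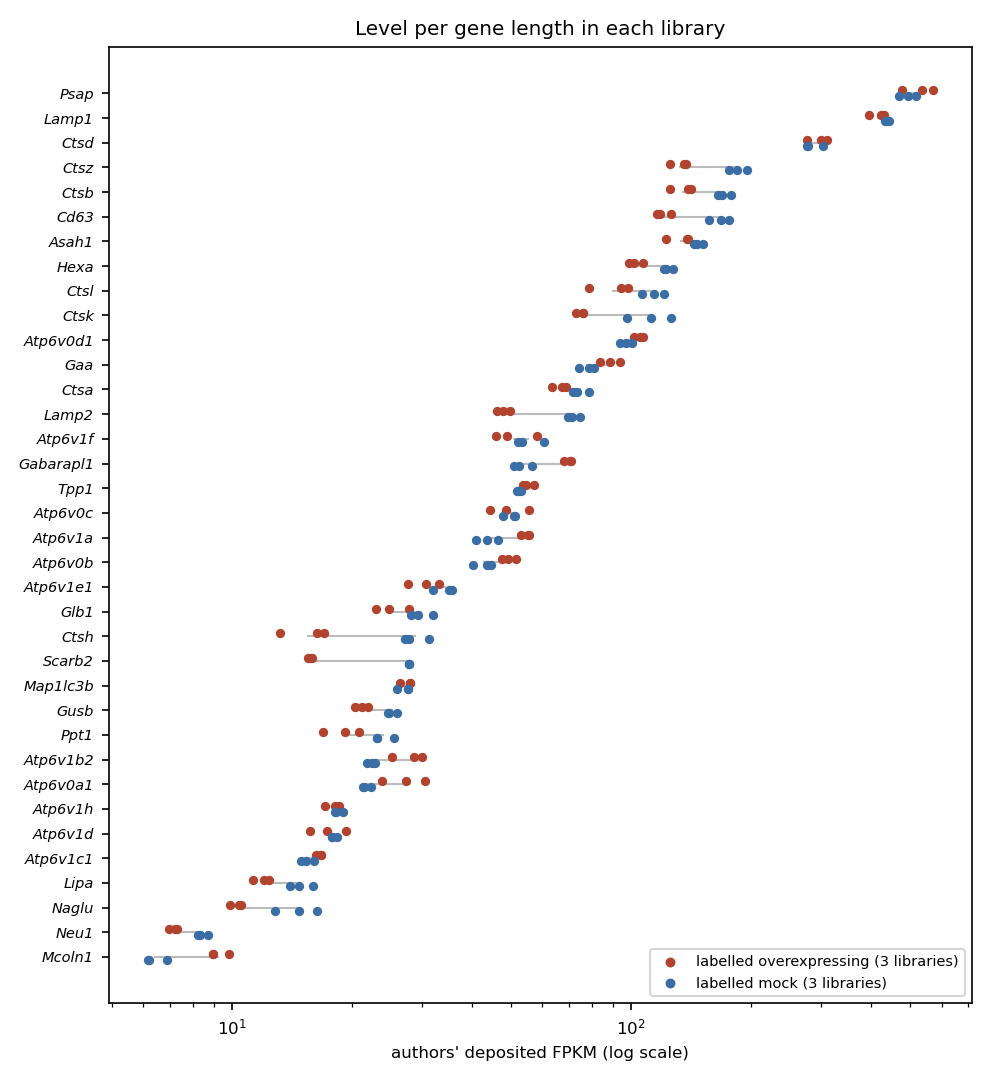
Authors' FPKM (log axis) of the 36 tested members, ordered by level, with the libraries labelled oe in red above those labelled mock in blue in each row, points for libraries and a grey line between the group means. Psap, Lamp1 and Ctsd have the highest levels, and Neu1 and Mcoln1 the lowest.

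Replicate 3 labelled oe was the lowest of its group for 24 of 36 members, and replicate 3 labelled mock was the highest of its group for 25. The members together summed to 10543, 10501 and 9698 CPM in libraries labelled oe, against 10853, 11088 and 11439 CPM in those labelled mock, so the sums did not overlap. As a share of unscaled counts the groups did overlap, at up to 1.10% in either. Some members share positions with other genes, and no source used here gives the strand setting of the counting, so reads in the overlaps are uncertain. Glb1 overlaps Tmppe on the same strand, Ppt1 overlaps Cap1 and Ctsb overlaps Fdft1 on the opposite strand, as do Map1lc3b with Zcchc14, Ctsz with Nelfcd and Ctsa with Pltp and Neurl2. Tmppe rose by 0.80 and Fdft1 fell by 0.56 on the log2 scale, and their part in the values of Glb1 and Ctsb was not tested.

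Other lysosomal enzymes, listed from general knowledge of the pathway, fell more often than they rose: of 40 tested, 19 fell and 4 rose, with a median log2 fold change of -0.21. Lgmn, the asparaginyl endopeptidase that processes cathepsins, averaged 70.4 ± 5.0 CPM in libraries labelled oe and 113 ± 4.0 CPM in libraries labelled mock (SD, n = 3 each; log2 fold change -0.68, edgeR adjusted p = 1.19e-08). Aga and Fuca1, which act in the breakdown of glycoproteins, fell by 0.45 and 0.41 on the log2 scale. Other membrane proteins and transporters, a list that includes the luminal protein Npc2, went more often up than down, 11 against 4 of 26. Here the cholesterol-handling pair split, with Npc1, in the membrane, at 0.46 and Npc2, in the lumen, at -0.45 on the log2 scale. The calcium-permeable channel gene Tpcn1 rose (0.61), and Laptm4a fell (-0.55).

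Genes listed for sorting to the lysosome, which include general endosomal traffic genes, also rose more often than they fell, 10 against 2 of 18. Their median log2 fold change was 0.30. Among them were the traffic genes Hgs, of the ESCRT machinery (0.67), the tethering subunits Vps18 (0.67) and Vps33a (0.59), and the adaptor subunit Ap3d1 (0.53). The enzyme receptor genes M6pr and Igf2r went apart in unscaled counts, and no test result is given here for either. M6pr summed to 8192 in libraries labelled oe and 10576 in those labelled mock, and Igf2r to 25468 and 21591. Of the other V-ATPase subunits and assembly factors, 21 were listed and 13 tested, and 6 rose and 5 fell. Atp6v0e2, an isoform of a small V0 subunit, had the highest fold change of that list, averaging 19.0 ± 2.3 CPM in libraries labelled oe and 7.25 ± 1.29 CPM in libraries labelled mock (SD, n = 3 each; edgeR adjusted p = 2.12e-08). Its partner isoform Atp6v0e fell (log2 fold change -0.27), as did Tcirg1, the a3 isoform (-0.39), and the assembly factor Vma21 (-0.32). The tissue-restricted subunits Atp6v0a4, Atp6v0d2, Atp6v1b1 and Atp6v1c2 had at most 16 counts summed over a group. In the further autophagy list, 17 of 41 rose and 7 fell, led by Bnip3, a mitophagy receptor (log2 fold change -1.49), and Sqstm1, the p62 cargo receptor, at 1461 ± 21.3 CPM against 794 ± 46.2 CPM. Atg14 (1.17) and Atg2a (0.67) rose too. Of the MiT/TFE factor genes, Tfeb rose (4.84 ± 0.69 CPM in libraries labelled oe and 2.18 ± 0.37 CPM in those labelled mock), Mitf (8.17 ± 1.48 against 12.7 ± 4.1 CPM) and Tfec (7.34 ± 0.75 against 11.7 ± 1.8 CPM) fell, and Tfe3 did not pass (60.0 ± 2.4 against 55.8 ± 2.9 CPM). With the Rag and folliculin genes, 6 of 16 rose and 6 fell. The shares called were 57.5% of other enzymes, 57.7% of other membrane proteins, 66.7% of sorting genes and 58.5% of other autophagy genes. The shares called of the other V-ATPase genes and of the MiT/TFE, Rag and folliculin genes were 84.6% and 75%. Beside these stand 45.3% of all tested genes and 60.6% of genes at the members' levels. These lists were not held to the members' levels and include genes below them, so neither figure is a matched background.

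**Figure D4:**
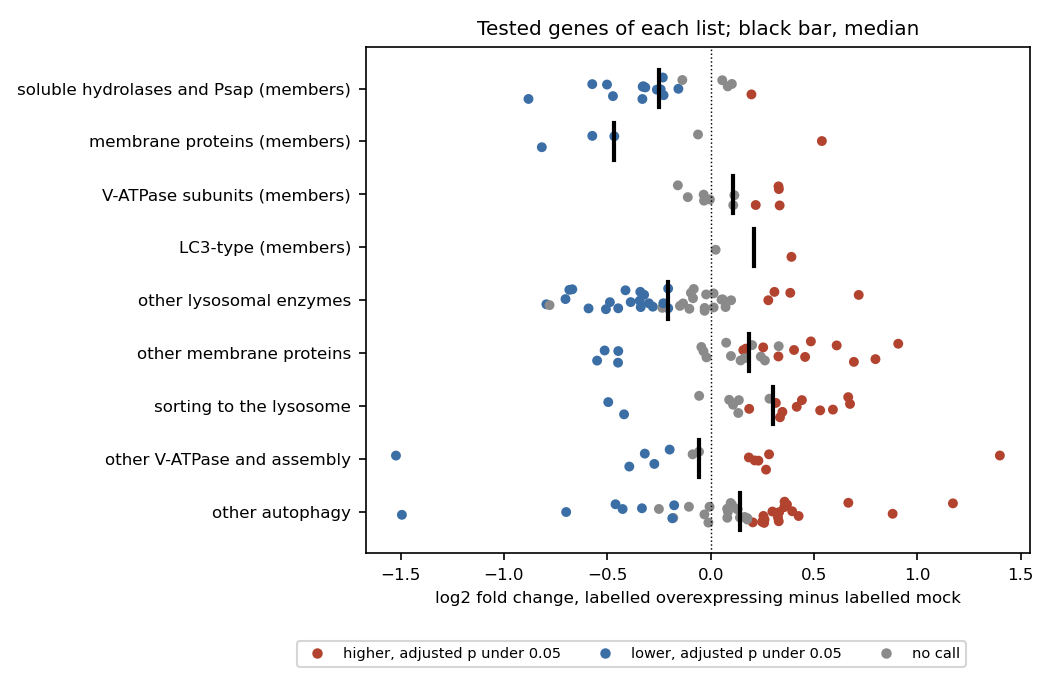
log2 fold change (libraries labelled oe minus labelled mock) of every tested gene in each list drawn, with calls coloured and a black bar at the list median. The MiT/TFE, Rag and folliculin genes are not drawn. The medians are -0.25 for soluble hydrolases and Psap, -0.47 for the members' membrane proteins and 0.11 for their V-ATPase subunits, against -0.21 for other lysosomal enzymes and 0.30 for sorting genes.

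Cell type markers moved between the groups as well. Summed mesenchymal markers were 7446 to 9084 CPM in libraries labelled oe, against 16146 to 17363 CPM in those labelled mock, and 7 of 10 fell and none rose. Col1a1 made up most of that sum. The 18 macrophage and monocyte markers, from cells rich in several members, summed to 13.8 to 17.2 CPM against 20.2 to 23.3 CPM. Of the 4 tested, Csf1r fell (8.42 against 13.1 CPM) and was the largest part of that sum. Lyz2 and Mertk, at -0.56 and -0.51 on the log2 scale, and Cd14, at 0.40, did not pass. Aif1 was at 0. Adgre1 had 5 counts, all in replicate 1 labelled mock, and Itgam 8, all in replicate 3 labelled oe. Schwann cell markers summed to 6.45 to 7.04 CPM against 32.4 to 38.7 CPM, with 6 of 7 tested lower. Osteoclast markers summed to 29.1 to 39.9 CPM against 23.1 to 28.5 CPM, with Calcr and Dcstamp at 0. Of the 4 tested, Nfatc1 rose (32.4 against 20.8 CPM) and made up most of that sum, Mmp9 fell (0.708 against 2.50 CPM), and Acp5 and Tnfrsf11a did not pass, at -0.78 and -0.58 on the log2 scale. Endothelial markers summed to at most 22.9 CPM in libraries labelled oe and at most 19.4 CPM in those labelled mock. Here Tek rose (15.5 against 6.02 CPM), Pecam1 fell (log2 fold change -2.74), and Cdh5 and Kdr did not pass, at -0.43 and -0.56 on the log2 scale. Mesothelial markers summed to 29.8 to 32.8 CPM against 39.6 to 44.9 CPM. Krt19, the 1 tested of 6, made up nearly all of that sum and fell (30.4 against 41.0 CPM). Wt1 was at 0, and Msln, not tested, had 31 counts in libraries labelled oe and 12 in those labelled mock. Lymphocyte and adipocyte markers summed to at most 0.479 CPM in any library. The part of all these markers in the members' differences was not tested.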

How the data were processed

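The deposited table holds raw counts per gene for 6 libraries, made by the authors from total RNA with fastp, HISAT2 2.0.5, StringTie 1.3.3b and featureCounts 1.5.0-p3 on mm39, per the submitters' processing notes. The same deposited table gives FPKM per library, used here only to compare levels between genes, and carries a per-library scale above length and depth. It also holds the authors' own comparison, with group means as a normalised signal, a log2 fold change and p-values. In the authors' deposited table, 7 members were higher and 16 lower, 22 of them shared in direction with the edgeR calls.

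Genes were filtered with filterByExpr (minimum count 10) and tested with edgeR 4.0.16 (R 4.3.3) by the quasi-likelihood test on TMM-scaled library sizes. Libraries fell into groups by title, 3 each, and no library pair was within sampling noise. An adjusted p under 0.05 counted as a call, with no minimum fold. Standard errors were derived from each log2 fold change and its F statistic. The floor of 3 counts came to 0.16 to 0.185 CPM. The code was tested on simulated data. Alternatives were RLE factors, library size only, no filter, DESeq2 1.42.0, a replicate block, an offset for gene length, and each library left out in turn. Genes named were all members and, of each other list, up to 4 with the smallest p among those called. Any whose absence from the calls is described was named too. Outside this rule, the MiT/TFE factor genes, M6pr, Igf2r, the untested V-ATPase isoforms, Cd63-ps and the overlapping genes were named after their values were seen. One gene that this rule names is not reported here. The members and lists were chosen with earlier results of these data known.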

Additional observations from a re-analysis of the deposited data

How the results depend on the processing

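Of 12 alternatives to the test, all kept the call and direction of 17 members: Ctsb, Ctsh, Ctsk, Ctsl, Ctsz, Hexa, Naglu, Lipa, Ppt1, Lamp2, Scarb2 and Cd63 as lower, and Mcoln1, Atp6v0a1, Atp6v1a, Atp6v1b2 and Gabarapl1 as higher. Ctsa, Glb1, Gusb, Neu1, Gaa and Atp6v0b lost the call under at least 1. With library size alone as the scale, the all-gene median shifted by 0.111 (log2). It gave 12 members higher and 12 lower, and 65.8% of all called genes were then higher, against 49.2%. Under it, Ctsd, Tpp1, Psap, Atp6v0d1 and Atp6v1c1 passed as higher, other membrane proteins had 18 higher, other V-ATPase genes 3 lower, and other autophagy genes 27 higher and 4 lower. The cause was not tested. Leaving out 1 library at a time gave 5 to 8 members higher and 13 to 19 lower, 2785 to 3118 of all genes higher and 2912 to 3243 lower. Other V-ATPase genes higher ran from 3 (without replicate 2 labelled oe) to 5. Deviations of same-numbered libraries from their group correlated at 0.0103, 0.0164 and 0.00337, and those of differently numbered ones at -0.0331 to 0.0221. No pairing was seen, and whether same-numbered libraries share a culture or a day was not tested. With a replicate block, 7 members were higher and 17 lower, the added one being Asah1 (edgeR adjusted p = 0.0425), and 3183 of all genes were higher and 3297 lower. Depth limited Ctss, whose difference was not detectable at 0 to 3 counts a library.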
